A study of Homo sapiens with 2 samples.

Results

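The 7 human guanylate-binding protein genes, GBP1 to GBP7, lie side by side on chromosome 1 and were examined for accessible chromatin in primed human embryonic stem cells and in hTBLCs. ATAC-seq, which reads out open chromatin by where a transposase can cut and tag the DNA, was carried out on the human embryonic stem cell line WIBR3. The primed library came from cells in the usual cultured state of this cell type, and the hTBLC library from the totipotent blastomere-like cells that the study obtained by repressing the spliceosome. The series asked which chromatin was more open or more closed between these states. Each group has 1 library from this 1 line, and the sources used here name no agent, dose or time in culture for either library. With no replicates, no test across the conditions was possible, and the intervals given are 95% intervals for counting error only.

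A peak of the authors' lists was assigned to a gene when its summit, the base of highest signal, lay inside the gene body or within 50 kb of it on hg38. The 7 genes are among 19970 protein-coding genes examined. Peaks that overlapped within a library were joined into regions, which gave 36 of 242009 primed regions and 40 of 250859 hTBLC regions in the stretch from 88956680 to 89438160, or 481.5 kb. A region with at least 1 bp in common with a region of the opposite list was called shared, and any other primed-only or hTBLC-only. The genes were chosen by their peak values in these 2 lists, GBP1 because a region near its gene end was listed in hTBLC alone, so the counts below describe these libraries and carry no test.

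Guanylate-binding proteins are large GTPases of the dynamin superfamily that cells make in quantity after exposure to interferon gamma. The cytokine acts through its receptor and the kinases JAK1 and JAK2, and its signal reaches genes through gamma activated sites and through the induced transcription factor IRF1. IRF1 and related factors bind the interferon-stimulated response element found at many of the induced genes. The proteins gather on bacteria and on the vacuoles that hold them, where GBP1 begins a coat that recruits GBP2, GBP3, GBP4 and caspase-4.

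Promoter sequences were available for 5 of the 7 genes (RefSeq, GRCh38.p14), each running from 250 bases before the start site to 50 after it. The 3 that hold an interferon-stimulated response element, searched as GAAA, 2 bases of any kind and GAAA on either strand, are shown with the element in capitals, together with that of GBP7, which has no match. All 4 genes lie on the minus strand and are written 5′ to 3′ in the direction of transcription, so the capitals give the element as read from the opposite strand.
GBP1: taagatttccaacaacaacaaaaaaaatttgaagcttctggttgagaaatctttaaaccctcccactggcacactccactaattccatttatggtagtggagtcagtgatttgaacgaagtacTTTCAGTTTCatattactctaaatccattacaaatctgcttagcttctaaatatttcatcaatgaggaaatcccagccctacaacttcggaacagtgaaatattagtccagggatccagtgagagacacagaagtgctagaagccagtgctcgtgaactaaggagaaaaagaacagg
GBP3: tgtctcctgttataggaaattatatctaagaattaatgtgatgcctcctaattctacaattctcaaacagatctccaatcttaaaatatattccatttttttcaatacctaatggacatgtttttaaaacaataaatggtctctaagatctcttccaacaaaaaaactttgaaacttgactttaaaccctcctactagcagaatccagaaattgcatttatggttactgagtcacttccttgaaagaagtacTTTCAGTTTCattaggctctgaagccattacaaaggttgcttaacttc
GBP4: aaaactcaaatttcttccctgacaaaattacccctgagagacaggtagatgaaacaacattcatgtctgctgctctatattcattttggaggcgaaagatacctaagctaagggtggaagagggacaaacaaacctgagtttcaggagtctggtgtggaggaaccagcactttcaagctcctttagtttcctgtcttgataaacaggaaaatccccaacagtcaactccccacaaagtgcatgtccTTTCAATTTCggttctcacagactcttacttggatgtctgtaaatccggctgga
GBP7: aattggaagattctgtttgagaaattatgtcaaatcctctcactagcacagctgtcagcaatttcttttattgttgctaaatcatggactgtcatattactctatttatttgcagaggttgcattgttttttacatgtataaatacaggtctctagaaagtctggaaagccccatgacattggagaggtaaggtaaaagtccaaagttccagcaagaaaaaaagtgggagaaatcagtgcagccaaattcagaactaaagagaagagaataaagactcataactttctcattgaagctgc
These windows lie at chr1:89065159-89065458 for GBP1, chr1:89022817-89023116 for GBP3, chr1:89198893-89199192 for GBP4 and chr1:89175954-89176253 for GBP7.

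The response element was found in 3 of the 5 promoters and in 3.57% of the 35116 promoters of the table. It spans bases −127 to −118 from the start site in GBP1, 3 to 12 in GBP3 and −4 to 6 in GBP4. The GBP4 element lay inside an accessible region in both libraries. That of GBP3 lay inside the primed region and 137 bp outside the nearest hTBLC region. In GBP1 it lay outside the regions of both libraries, 854 bp from the hTBLC region described below and 7244 bp from the nearest primed region. The other motifs were spread over different members. The strict letters TTCNNNGAA of a gamma activated site matched in GBP3 alone of the 5, against 7.66% of all promoters. Sites that depart from these letters were not searched, so the absence of a match does not show that GBP1 or another member lacks one. The AP-1 letters TGANTCA, with the middle base left free, matched in GBP3 as TGAGTCA and in GBP6 as TGATTCA, against 7.71%. TATA box letters (TATAAA) matched in GBP7 and GBP6, against 11.5%. The match lay at bases −113 to −108 in GBP7. In GBP6 it lay at −28 to −23, and on the opposite strand at −30 to −25. A match describes letters in the window and not a bound site.

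Few accessible regions reached the promoter windows themselves. GBP4 was touched in both libraries, with 234 bp of the window covered in primed and 159 bp in hTBLC, and GBP3 was touched in primed alone, over 135 bp. The windows of GBP1, GBP7 and GBP6 were touched in neither library. Of 15811 protein-coding genes with a promoter entry, 74.5% had a region touching a promoter window in both libraries and 3.05% in primed alone.

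A pileup is the number of reads or fragments stacked at a summit, solved here from the authors' fold enrichment and −log10 p. The lists held 295753 primed and 299673 hTBLC peaks, with a lowest pileup of 6 and 7, a median region pileup of 17 and 16, and a background of 1.79 and 1.96. The ratio of the backgrounds, 1.09, was taken as relative depth, and every ratio of hTBLC to primed pileups is scaled by it. A site open in fewer cells and a site less open in each cell cannot be told apart in such data. Against the label of embryonic stem cells, 5 of 6 pluripotency genes had a region within 1 kb of a gene end in both libraries (SOX2, NANOG, LIN28A, DPPA4 and CRIPTO), and POU5F1 had it in primed alone, with a pileup of 37. The 3 of these with a ratio, SOX2, NANOG and CRIPTO, had scaled ratios of 0.67, 0.55 and 0.19, each with an interval below 1. LIN28A had pileups of 47 in primed and 91 in hTBLC and DPPA4 of 68 and 30, in each case at strongest regions that did not overlap. Of 12 markers of endothelium, macrophages, T cells and fibroblasts, 8 had gene end regions in both libraries, PECAM1 in hTBLC alone (pileup 15), and CDH5, CD14 and PTPRC in neither. Of all protein-coding genes, 78.6% had one in both libraries. Marker ratios went both ways, with SPI1 at 1.68 (1.14 to 2.50), CSF1R at 0.38 (0.21 to 0.66) and COL1A1 at 0.69 (0.50 to 0.96), and the other 4 with a ratio included 1. Open gene ends of such markers do not show expression, and their part in the values below was not tested.

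Across the cluster, the libraries mostly shared their stronger regions and differed in weak ones. Of the primed regions, 22 were shared and 14 primed-only, or 38.9% (Wilson 24.8 to 55.1), against 37.3% of all primed regions. Of the hTBLC regions, 23 were shared and 17 hTBLC-only, or 42.5% (28.5 to 57.8), against 39.2% of all hTBLC regions. The library-only regions were thus split 14 to 17, an hTBLC-only share of 54.8% (37.8 to 70.8), against 52.1% of all library-only regions in the genome. The median pileup was 22 in shared and 11.5 in primed-only regions of the primed library, and 23 in shared and 10 in hTBLC-only regions of the hTBLC library. Medians split in this way are not given for the whole genome, so nothing particular to the cluster is read from them. Library-only pileups reached 23 in primed, at a site 5536 bp from GBP2, and 29 in hTBLC, at GBP1.

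**Figure D1:**
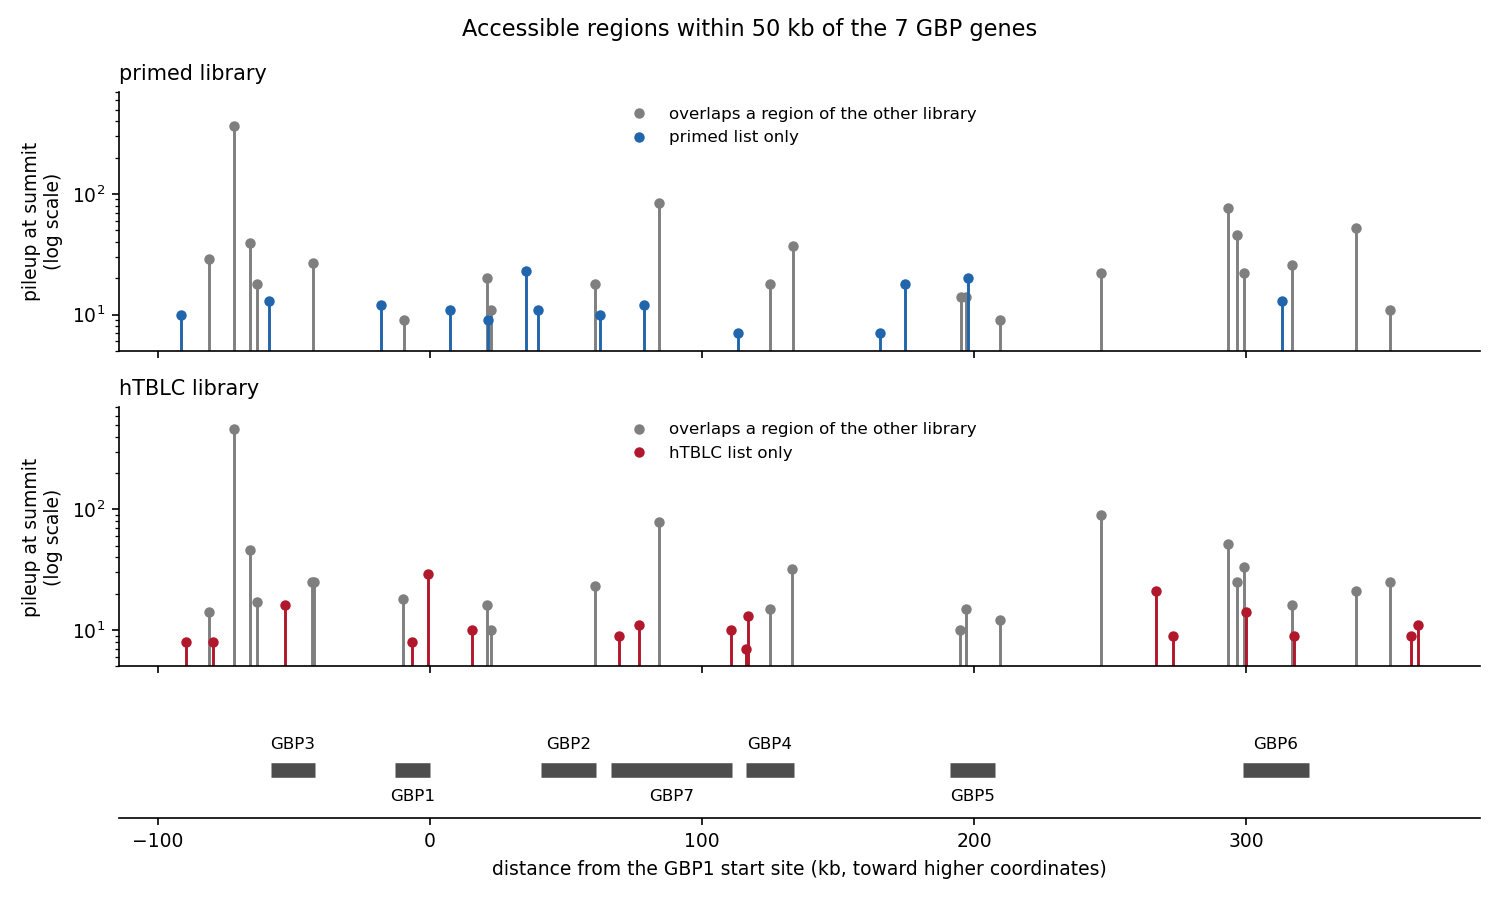
Pileup at the summit (log scale) of each of the 36 primed and 40 hTBLC regions, by distance in kb from the GBP1 start site, with shared regions in grey, library-only regions in blue (primed) or red (hTBLC), and the 7 gene bodies as bars below. Library-only regions stay at or below 23 in primed and 29 in hTBLC, while the highest stems, 364 and 461 at the KYAT3 and RBMXL1 side, are shared.

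Inside the gene bodies, which span 151.9 kb together, the weak regions leaned to the hTBLC list. The bodies held 13 primed regions, 3 of them primed-only, and 21 hTBLC regions, 10 of them hTBLC-only. The hTBLC-only share was 76.9% (10 of 13), against 48.2% of 91182 library-only regions in all protein-coding gene bodies. The 10 include the GBP1 region for which that gene was chosen, so nothing is read from this comparison. The lean to hTBLC rested on weak calls. With both lists cut at −log10 q 5 and overlap called again, the split was 4 against 4. With both cut at 10 it was 3 primed-only against 2 hTBLC-only. A site shared in the full lists counts as library-only there once its partner is dropped. At 10 that held for primed regions in GBP4 (−log10 q 10.9, against 7.46 in hTBLC) and GBP6 (16.4 against 8.36). It also held for an hTBLC region in GBP1 (10.2, against 3.01 in primed). Outside the bodies 11 of 23 primed and 7 of 19 hTBLC regions were library-only.

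GBP1, which starts the coat on cytosolic bacteria, carried the strongest hTBLC-only region of the cluster. The gene lies at chr1:89052319-89065208 on the minus strand. The region, chr1:89064107-89064472, had a pileup of 29 (exact Poisson 19.4 to 41.6), a fold enrichment of 10.1 and a −log10 q of 22.1 in the authors' list. Its summit was 903 bp downstream of the start site and its edge 736 bp from it, inside the gene and inside an overlapping lncRNA, LOC105378841. No primed region lay closer to the GBP1 start than 7371 bp, where a primed-only region with a pileup of 11 was listed upstream.

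Elsewhere inside the GBP1 body the differences were small in pileup. A site shared by both libraries at chr1:89055140-89055666, 9735 bp into the gene, had pileups of 9 in primed and 18 in hTBLC, a ratio of 1.83 with an interval from 0.78 to 4.62 that includes 1. A further hTBLC-only region in the body, at 89058288 to 89058487, had a pileup of 8. Over the full 50 kb the count ran the other way, with 6 primed-only and 4 hTBLC-only regions, while inside the body it was 0 and 2.

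GBP2, which joins the GBP1 coat and is anchored in membranes by a lipid tail, was open at the same end in both libraries. The gene lies at chr1:89106132-89126114. At its higher-coordinate end the pileup was 18 in primed (89125583 to 89126063) and 23 in hTBLC (89125576 to 89126226), a ratio of 1.17 (0.60 to 2.30). This was the only region inside the body in either library. The strongest primed-only region of the cluster, chr1:89100447-89100850, lay 5536 bp outside the gene, with a pileup of 23 (14.6 to 34.5), a fold enrichment of 8.60 and a −log10 q of 16.2. GBP2 had 6 primed-only and 6 hTBLC-only regions within 50 kb.

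GBP3, another coat member, at chr1:89006680-89022866 on the minus strand, was open at its start in both libraries, in different outlines. Primed had 1 region of 1231 bp, 89021721 to 89022951, that crossed the start site and held 3 summits with pileups up to 27. hTBLC had 2 regions, 89021765 to 89022038 and 89022131 to 89022718, each with a pileup of 25, and the nearer ended 148 bp short of the start site. Summits placed within 150 bp of each other in the libraries had pileups of 13 and 25 at 986 bp into the gene, a ratio of 1.76 (0.87 to 3.74), and of 27 and 25 at 530 bp, a ratio of 0.85 (0.47 to 1.52). Both intervals include 1. The summit nearest the start, 207 bp into the gene with a pileup of 16, was listed in primed with no hTBLC summit within 150 bp. An hTBLC-only region, 89011771 to 89012023, lay deeper in the gene with a pileup of 16, and a primed-only one, 89005408 to 89006139, ended 541 bp beyond the 3′ end with a pileup of 13.

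GBP4, also recruited to the coat, at chr1:89181144-89198942 on the minus strand, had the broadest start region among the members in each library. The region ran from 89197851 to 89199126 in primed, with a pileup of 37, and from 89197839 to 89199051 in hTBLC, with 32, a ratio of 0.79 (0.48 to 1.30). Each library placed 4 summits in it. From the inside of the gene towards the start, their pileups were 20, 32, 37 and 22 in primed and 18, 32, 31 and 17 in hTBLC. The same 4 positions were open in both libraries at heights within counting error of each other. A lncRNA, LOC107985076, also overlaps this region. A shared site 8760 bp into the gene had pileups of 18 and 15, and 2 weak hTBLC-only regions near the 3′ end had pileups of 7 and 13.

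**Figure D2:**
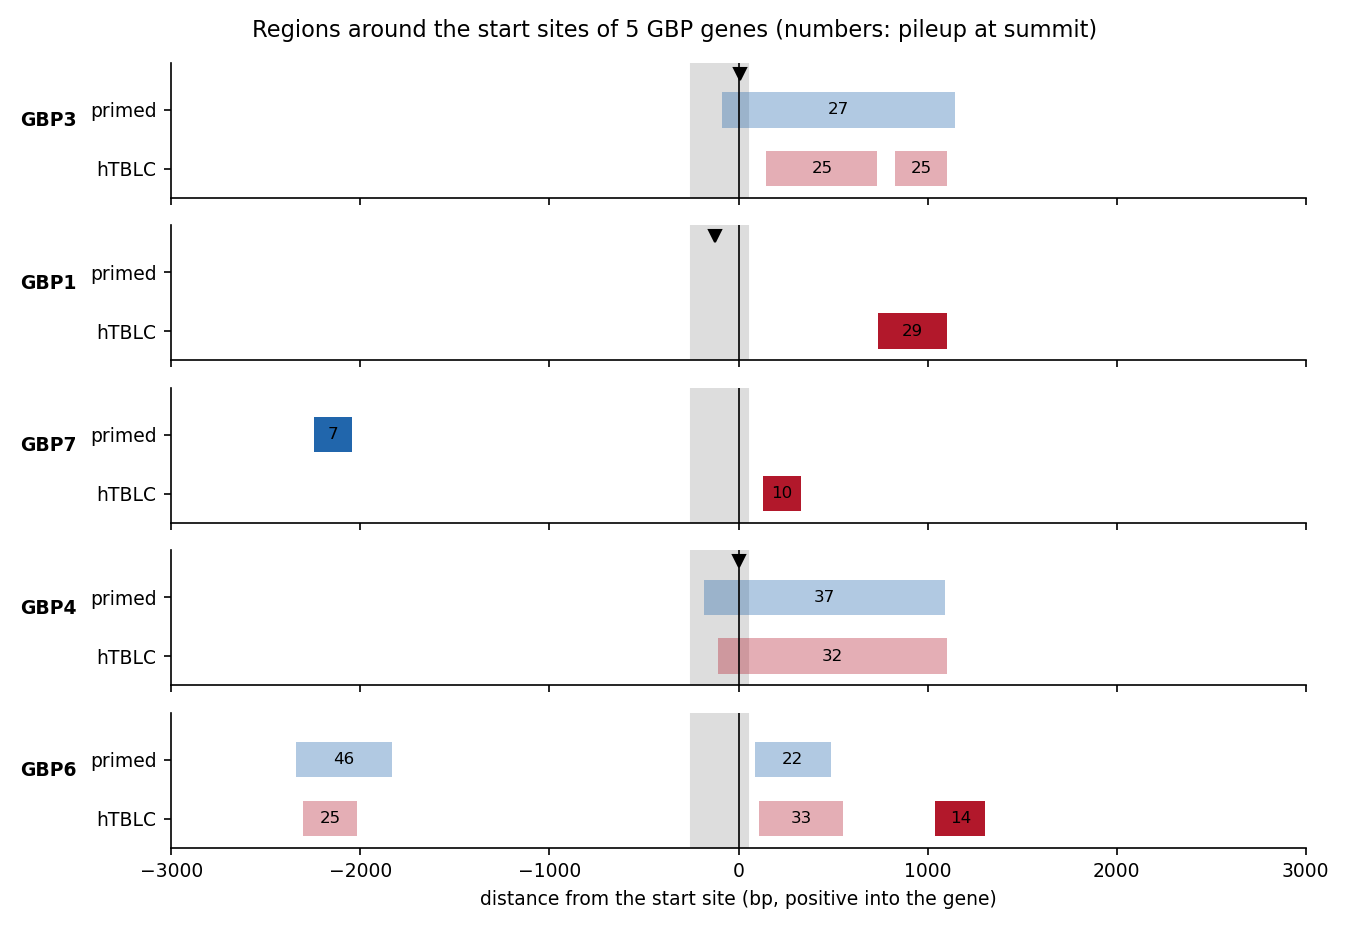
Regions within 3000 bp of the start sites of GBP3, GBP1, GBP7, GBP4 and GBP6, drawn to scale in the direction of transcription (pale, shared; dark, library-only; number, pileup at the highest summit; grey band, promoter window; triangle, response element). GBP4 is open across its start in both libraries, while GBP1 and GBP7 have only hTBLC regions, with pileups of 29 and 10, within 1000 bp downstream.

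GBP5, which is known for restraining the envelope proteins of viruses, was the gene with no region within 1 kb of either end in either library. It lies at chr1:89256189-89272860. The nearest regions were 1590 bp away in primed and 1673 bp in hTBLC, with pileups of 9 and 12 and a ratio of 1.22 (0.47 to 3.28). Inside the body, shared sites had pileups of 14 and 10 at 89259642 to 89260402 and of 14 and 15 at 89262027 to 89262271, with intervals that include 1. A primed-only region beside the latter, 89262783 to 89263029, had a pileup of 20 (12.2 to 30.9) and a −log10 q of 10.2. GBP5 had 3 primed-only regions and no hTBLC-only region within 50 kb, and stayed on that side under every one of the 7 settings tried. A pseudogene, LOC100421401, overlaps the sites in the body.

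The highest ratio among shared sites lay between GBP5 and GBP6, 39.0 kb from the GBP5 body, with its summit inside no annotated gene. There the pileup was 22 (13.8 to 33.3) in primed at chr1:89311726-89312137 and 90 (72.4 to 110.6) in hTBLC at chr1:89311655-89312179. The ratio was 3.74 (2.33 to 6.26), higher than at 98.9% of the 147730 groups of overlapping regions in the genome. The local background was also higher in hTBLC, 4.04 against 1.79, so the authors' fold enrichments of 8.25 and 18.1 differed by less, 1.13 on the log2 scale against 1.90 for the pileups. The hTBLC library also had a region of its own in this gap, 89331966 to 89332235, with a pileup of 21 (13.0 to 32.1), 31962 bp upstream of GBP6.

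GBP6, the gene at the far end of the row and the only member given here on the plus strand, at chr1:89364059-89388160, was open just inside its start in both libraries. The pileup there was 22 in primed (89364145 to 89364546) and 33 in hTBLC (89364167 to 89364613), a ratio of 1.37 (0.78 to 2.47). Of the sites around it, 3 had lower pileups in hTBLC beyond counting error. At 5573 bp upstream the pileup was 76 in primed and 52 in hTBLC, a ratio of 0.63 (0.43 to 0.90), and at 2179 bp upstream it was 46 and 25, a ratio of 0.50 (0.29 to 0.83). At 17290 bp beyond the gene, chr1:89404967-89405843, it was 52 and 21, a ratio of 0.37 (0.21 to 0.62), a lower value than at all but 5.5% of groups. These 3 intervals lie below 1, while that of the start region includes it. A site 17748 bp into the gene had pileups of 26 and 16, a ratio of 0.56 (0.28 to 1.09), which also includes 1. Closest to the start region was an hTBLC-only region, 89365100 to 89365364, with a pileup of 14 and a −log10 q of 2.96. Its summit lay 1154 bp into the gene. Another hTBLC-only region in the body, 89382664 to 89382896, had a pileup of 9. GBP6 had 1 primed-only region within 50 kb (pileup 13) and 6 hTBLC-only regions with pileups from 9 to 21. Further along, at the transcribed pseudogene GBP1P1, pileups of 11 and 25 gave a ratio of 2.08 (0.99 to 4.68), whose interval lies above 1 only without scaling for depth.

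GBP7, at chr1:89131742-89176003 on the minus strand, had a weak start region in hTBLC alone and the highest summit inside any of the 7 genes in both libraries. The start region, chr1:89175671-89175874, had a pileup of 10 (4.80 to 18.4), a fold enrichment of 3.72 and a −log10 q of 3.41, with its summit 227 bp into the gene. The nearest primed region, with a pileup of 7, lay 2045 bp upstream. The intragenic site, 26572 bp into the gene, had pileups of 84 (67.0 to 104.0) in primed at chr1:89149238-89149643 and 78 (61.7 to 97.3) in hTBLC at chr1:89149205-89149648. Its ratio of 0.85 (0.62 to 1.17) includes 1, so this site did not differ beyond counting error. A lncRNA, LOC105378842, overlaps the gene here. GBP7 had 6 primed-only and 5 hTBLC-only regions within 50 kb, and 1 and 3 inside the body.

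Counted over the gene ends, 4 of the 7 genes (GBP2, GBP3, GBP4 and GBP6) had a region within 1 kb of an end in both libraries, GBP1 and GBP7 in hTBLC alone, and GBP5 in neither. Of all protein-coding genes, 78.6% had one in both libraries, 2.95% in hTBLC alone and 3.35% in primed alone. With the start site alone, GBP1 and GBP7 remained hTBLC alone among the 5 members whose start was known, against 2.25% of genes. Since GBP1 was chosen for this state, nothing is read from the share. GBP7 left the class when calls below a −log10 q of 5 were dropped, and GBP1 with a window of 500 bp. More primed-only than hTBLC-only regions within 50 kb were counted at 3 genes (GBP1, GBP5 and GBP7), against 52.1% of all genes, and more hTBLC-only regions at 3 (GBP3, GBP4 and GBP6), against 33.4%. The 50 kb windows of neighbouring members overlap, so a region can count for several of them.

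**Figure D3:**
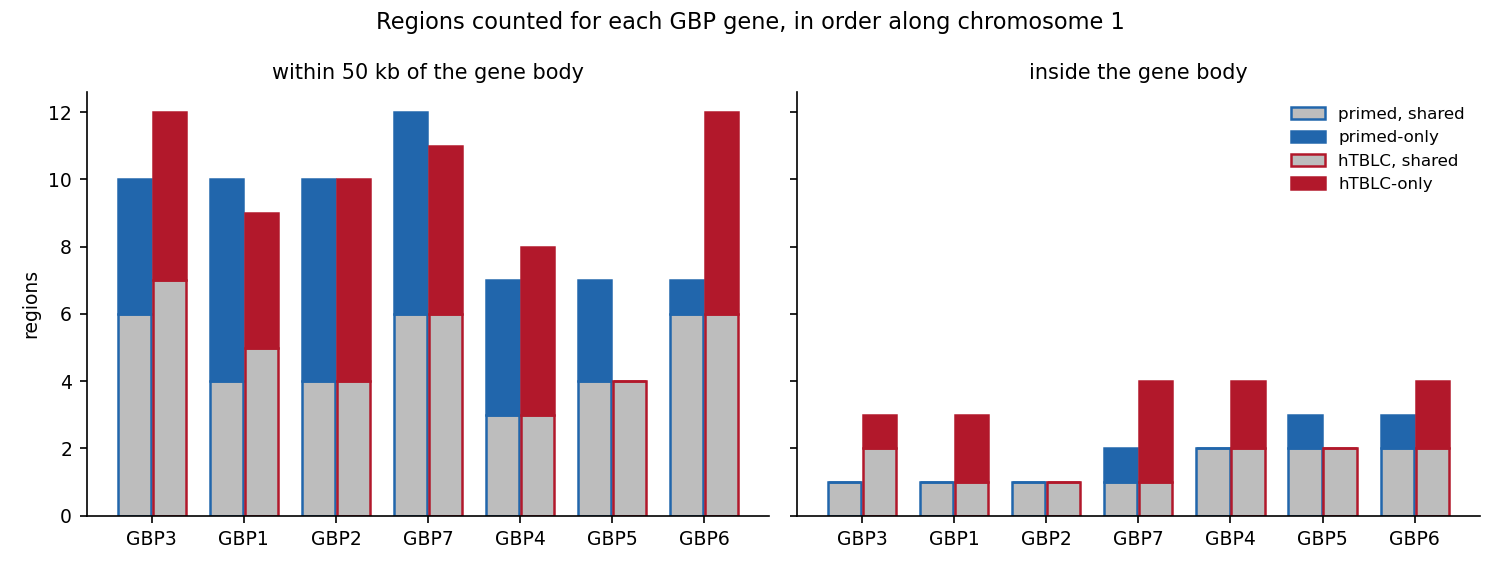
Number of regions for each GBP gene within 50 kb of the body (left) and inside it (right), in chromosome order, with shared regions in grey and library-only regions in blue (primed) or red (hTBLC). GBP6 shows 6 hTBLC-only regions against 1 primed-only, GBP5 3 primed-only against 0, and inside the bodies the red parts total 10 against 3 in blue.

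Where both libraries were open, pileups differed little on the whole. The cluster held 22 groups of overlapping regions, with a median log2 ratio of −0.24 and quartiles of −0.57 and 0.22, against a median of −0.13 and quartiles of −0.63 and 0.36 over all groups. The ratio was above 1 in 8 groups and below 1 in 14. An interval above 1 was found in 2 groups, against 11.4% of all groups, and an interval below 1 in 4, against 18.0%, while 16 included 1. Apart from the sites around GBP5 and GBP6 already given, the former included the start shared by KYAT3 and RBMXL1, neighbours on the GBP3 side, with pileups of 364 and 461 and a ratio of 1.16 (1.01 to 1.33). The latter included a site inside both of those genes, with pileups of 29 and 14 and a ratio of 0.44 (0.22 to 0.86). So none of the groups inside the bodies of the 7 genes had an interval that left out 1. LRRC8B, the next protein-coding gene past GBP6, had a gene end ratio of 1.13 (0.87 to 1.46).

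**Figure D4:**
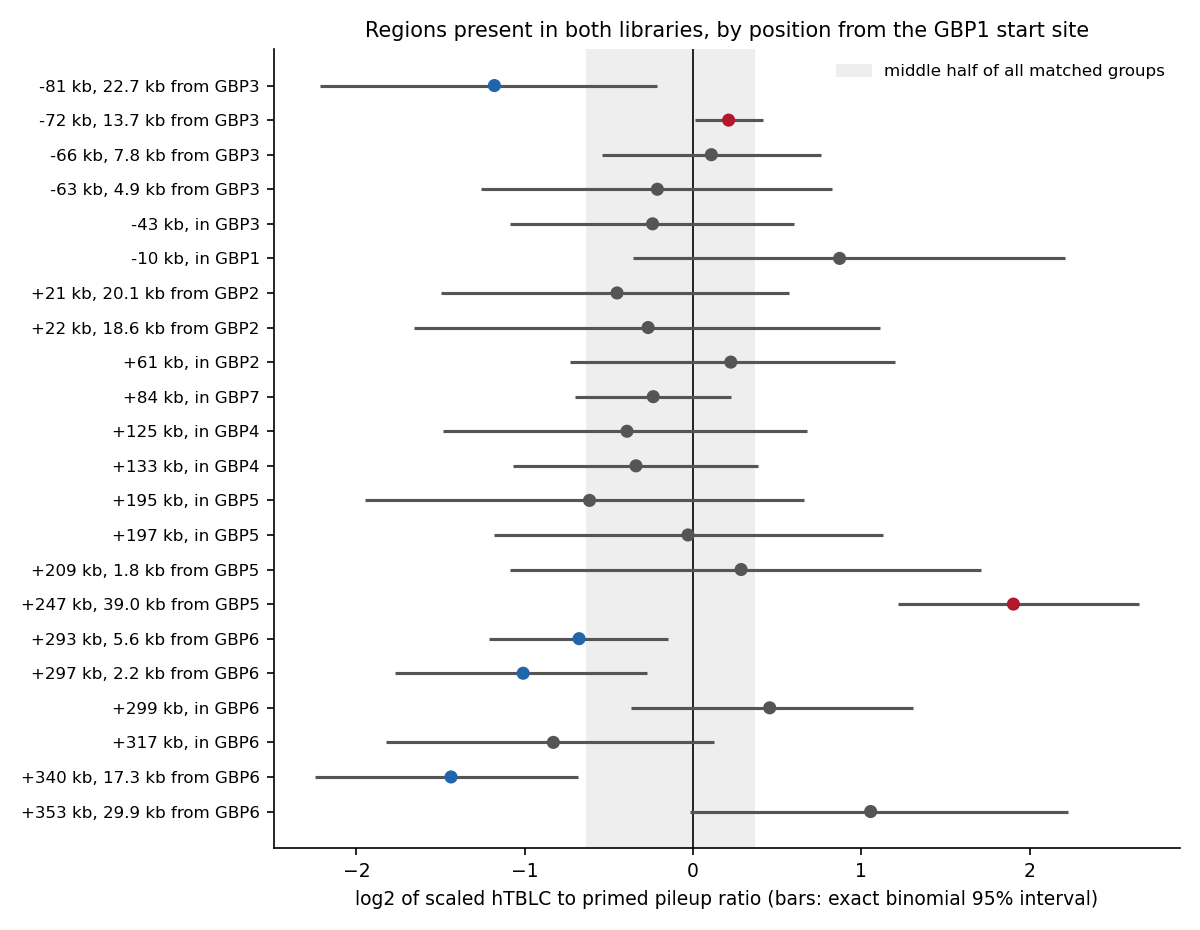
The log2 of the scaled hTBLC to primed pileup ratio at the 22 sites open in both libraries, in chromosome order, with exact binomial 95% intervals (red, above 0; blue, below 0; grey, including 0) and the middle range of all matched groups shaded. The site 39.0 kb from GBP5 stands highest at 1.90, and 3 of the 4 sites with an interval below 0 flank GBP6.

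The limit of 50 kb cut through no dense stretch. The outermost primed regions inside it lay 33.0 kb from GBP3 (pileup 10) and 29.9 kb from GBP6 (pileup 11), and the next ones outside lay 55.8 kb (pileup 13) and 67.2 kb away (pileup 16). In hTBLC the outermost inside lay 31.3 kb (pileup 8) and 40.1 kb away (pileup 11), and the next outside 69.7 kb (pileup 26) and 67.2 kb away (pileup 39).

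Gene ends of the pathways that induce the family or work with it were mostly open in both libraries, as were those of 78.6% of all protein-coding genes. The list held 53 genes: those of the interferon and inflammasome pathways and 3 atlastins, which encode related large GTPases. Of the 53, 48 had a gene end region in both libraries and none in primed alone. IDO1 had it in hTBLC alone (pileup 9, −log10 q 2.71), and MX2, CXCL9, CXCL10 and CASP1 in neither. Of all protein-coding genes, 3.35% had it in primed alone and 2.95% in hTBLC alone. All 7 receptors and kinases, all 11 transcription factors and all 4 inhibitors on the list were among the 48, and nothing particular to the list is read from these counts. IRF1, an activator of GBP transcription, had pileups of 176 and 205, a ratio of 1.06 (0.87 to 1.31). Its gene end thus did not differ beyond counting error. Among 43 genes with a ratio, 4 had an interval above 1, or 9.30%, and 8 below 1, or 18.6%, against 17.0% and 14.4% of 14312 protein-coding genes.

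The 12 genes with an interval that left out 1 spanned ratios from 0.21 to 2.74. Above 1 were IFNGR2, a chain of the interferon gamma receptor, with pileups of 20 and 60 and a ratio of 2.74 (1.63 to 4.80), and IRF2, IFITM1 and TRIM22, with ratios of 1.37, 1.69 and 1.52. Below 1 was CASP4, the caspase recruited to GBP coats, with 71 and 16 and a ratio of 0.21 (0.11 to 0.36). GSDMD, which encodes the pore protein that caspase-4 cleaves, had 78 and 52 and a ratio of 0.61 (0.42 to 0.88). The interferon target CXCL11, a chemokine, had 38 and 11 (0.26, 0.12 to 0.53), and SOCS3, an inhibitor of JAK signalling, 137 and 58 (0.39, 0.28 to 0.53). The others below 1 were NLRC5, PSMB8, ISG15 and the atlastin gene ATL2, with ratios from 0.53 to 0.69.

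**Figure D5:**
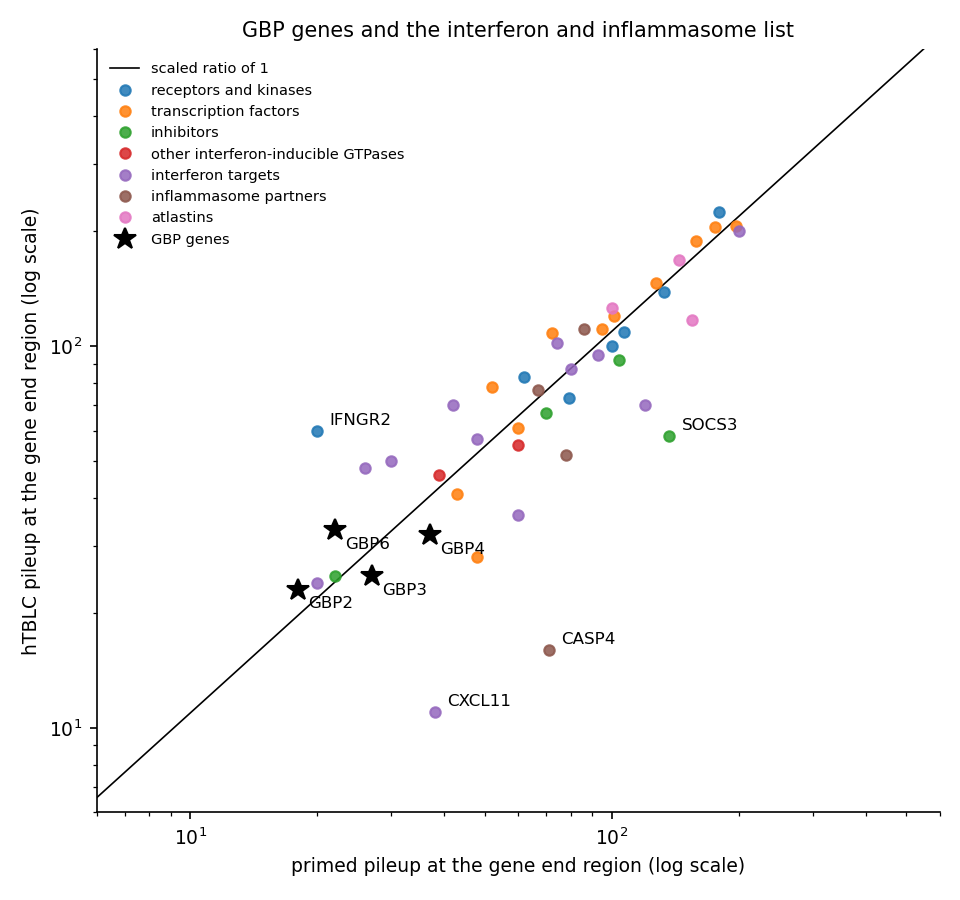
Gene end pileup in primed (x, log scale) and hTBLC (y, log scale) for the 43 listed genes with a ratio, coloured by role. The list holds pathway genes and atlastins. The 4 GBP genes open in both libraries are stars, and the line marks a scaled ratio of 1. The GBP genes lie near the line between pileups of 18 and 37, while IFNGR2 lies above it and CASP4, CXCL11 and SOCS3 below.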

How the data were processed

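Peak lists of 1 primed and 1 hTBLC library were used. Bowtie2, Picard, MACS2 and hg38 are named, per the submitters' processing notes, without version or role. The sources used here give no read shift, duplicate handling or calling threshold. Each peak was deposited by the authors with a summit offset, a score (not used), a fold ratio of the summit over local background, a −log10 p-value and a −log10 q-value. From this fold and −log10 p, whole pileups and backgrounds were computed under a Poisson tail, and 100% of primed and 99.9993% of hTBLC peaks gave whole pileups (tolerance 0.001). On simulated data 100% of 19974 peaks were recovered. Ratios were scaled by the background ratio, with exact binomial 95% intervals. Peaks off chromosomes 1 to 22 and X, 16 in each list, were dropped. Read totals were not analysed here. Gene bodies came from RefSeq GRCh38.p14 (23 chromosomes matched), and strand from the promoter table. Python 3.11.15, NumPy 2.4.6, pandas 2.3.3, SciPy 1.17.1 and matplotlib 3.10.9 were used.

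The 7 members, the lists and the alternatives were chosen with earlier results of these data known. All members were described, and the values of 1 pathway gene are not reported here. The regions at gene ends, the strongest of each library and the strongest library-only ones were named by rule, pathway genes where the gene end was open in 1 library or the ratio was extreme, and the other regions after their values were seen. The settings varied were minimum −log10 q values of 5 and 10, a common −log10 p floor, reciprocal overlap of 50%, sharing within 500 bp, a distance of 10 kb or the body alone, the whole span, gene end windows of 500 and 2500 bp, the start end alone, unscaled ratios and fold in place of pileup. A q limit inside the bodies was added after the data were seen. The q limits and the p floor were applied to both lists before peaks were joined and overlap was called again.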

Additional observations from a re-analysis of the deposited data

How the results depend on the processing

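No paired analysis was possible because each group has 1 library and no test was made. The hTBLC-only share of library-only regions, 54.8% in the full lists, was 33.3% (4 of 12) at a minimum −log10 q of 10 and 76.9% (10 of 13) inside the gene bodies, and lay between 42.9% and 58.6% under the other settings without a body limit. Inside the bodies it was 50% (4 of 8) at a minimum −log10 q of 5 and 40% (2 of 5) at 10. The number of members open at a gene end in hTBLC alone, 2 by default, was 1 at a minimum −log10 q of 5 or 10 (GBP1), 1 with a window of 500 bp (GBP7) and 1 with a window of 2500 bp (GBP1). The 22 shared primed regions became 10 at a minimum −log10 q of 10 and 10 inside the bodies, where fewer regions are counted. The median ratio at shared sites, 0.848, was 0.927 without scaling and 0.893 from fold enrichments.

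The difference of primed-only minus hTBLC-only regions reversed at GBP4, from −1 to 1 at a minimum −log10 q of 5 and to 2 at 10, at GBP7, from 1 to −2 within 10 kb and −2 inside the body, and at GBP1, from 2 to −2 inside the body. At GBP4 the q limit of 5 removed hTBLC-only regions with −log10 q from 1.46 to 4.15, and primed-only ones at 1.68. It kept an hTBLC-only region at 5.74, which the limit of 10 removed. The limit of 10 also removed the hTBLC partner (7.46) of a shared primed region (10.9), which then counted as primed-only. GBP5 kept its direction in all 7 settings, and GBP3 and GBP6 in 6 of 7, with 0 in the other. A common −log10 p floor of 2.83 changed none of the counts. The lists lack 252 primed and 327 hTBLC ranks, and regions on those lines are treated as not open. How reads were placed among the similar GBP genes was not analysed here.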

Other observations

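The number of regions in the GBP cluster lay in the middle range of the genome. Its 481.5 kb held 36 primed regions, against a median of 41 (quartiles 29 and 53) over 5853 windows of the same length, and 40 hTBLC regions, against a median of 42 (32 and 53) over 5886 windows. The transcribed pseudogene GBP1P1, beyond GBP6, had 2 summits in each library, with pileups of 11 and 9 in primed and 25 and 17 in hTBLC. At MX1, another interferon-inducible GTPase gene, gene end pileups were 36 in primed and 24 in hTBLC, and the strongest regions of the libraries there did not overlap. AIM2, which encodes a DNA sensor whose inflammasome GBPs assist, had gene end pileups of 11 and 24, also without overlap of the strongest regions.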
